A study of Mus musculus with 21 samples.

Results

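Integrin and laminin subunits were followed across 3 mouse cell lines with raised or lowered levels of the long noncoding RNA Esrp2-as. The 31 genes were chosen by symbol from 48440 rows of a gene count table, with no measured value in the choice, and all 31 were found. They comprised 13 integrin alpha chains, 8 integrin beta chains and 10 laminin chains. Chains of either family outside this list were not analysed here. In 3T3-L1, a preadipocyte line, Esrp2-as was overexpressed in 2 biological replicates, against 2 replicates of an empty vector control. M27H4, a line from a mammary tumour of a C3(1)SV40 TAg mouse, in which the C3(1) promoter drives the viral T antigen, had 3 overexpression replicates and 3 empty vector control replicates. M6, another line from a tumour of the same mouse model, had 2 replicates in which Esrp2-as was knocked down with LNA antisense gapmers, and 2 replicates whose control the labels also call an empty vector. All cells were grown in DMEM with 10% FCS. Knockdown was thus made in 1 line and overexpression in the other 2, and p-values measure the spread between replicates that the labels call biological.

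Integrins are receptors made of an alpha and a beta chain that span the membrane and tie the extracellular matrix to the actin or keratin cytoskeleton. The alpha chain largely sets the ligand: some pairs bind laminins, some collagens, and some the RGD motif of fibronectin, vitronectin or latent TGF-beta, while a further group is best known from leukocytes and platelets. Most alpha chains pair with the beta chain encoded by Itgb1, whereas the chain encoded by Itgb4 pairs only with that of Itga6, in the hemidesmosomes of epithelial cells. Laminins are trimers of an alpha, a beta and a gamma chain and form the sheet of basement membranes. In mammary gland, laminin contact through integrins is known to keep epithelial cells polarised and able to differentiate.

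Depth ran from 34892461 to 328493417 counts per replicate. Levels of a gene between libraries are given as CPM, the counts scaled to the TMM-adjusted library size. Levels of different genes are given as TPM, which also divides by transcript length. Groups are called separate where all replicates of a group lay above all of the other. With 2 or 3 replicates this is common without any change, so it describes the values and is no test. The share of all genes with separate groups is not given here. The targeted RNA, Esrp2-as, had 45.8 and 35.5 CPM in 3T3-L1 overexpression and 0.25 and 0.355 in 3T3-L1 control. It had 61.2, 65.9 and 15.9 CPM in M27H4 overexpression and 0.731, 1.25 and 0.889 in M27H4 control. In M6 knockdown it had 0.527 and 0.851 CPM, against 2.96 and 2.42 in M6 control. The groups were separate in every line and lay in the labelled direction, although the knockdown itself did not pass edgeR's quasi-likelihood test (adjusted p = 0.363). A list of 9 epithelial markers summed to 22.9 to 30.9 CPM in 3T3-L1 libraries, 149 to 290.1 in M27H4 and 3849.6 to 5640.4 in M6. M27H4, labelled a mammary tumour line, thus had a low summed level of these markers, which did not hold evenly for each. In the 3 M27H4 control replicates Epcam, an epithelial surface protein, was at 0.0488, 8.14 and 4.73 CPM, against 624 and 837 CPM in M6 control. Cdh1, another marker of the list, was at 113, 121 and 169 CPM in the same M27H4 replicates, against 750 and 472 CPM in M6 control. Replicate 1 of M27H4 carries the code LR-20284 in its column names, which no M6 column carries, while the codes of M27H4 replicates 2 and 3 and of every 3T3-L1 column also name M6 columns. In M6, replicate 1 of both groups was weighted towards long genes. For genes with at least 7 kb of exons the median log2 ratio of replicate 1 over replicate 2 was 0.14 in M6 knockdown and 0.34 in M6 control, and for genes under 2 kb it was -0.39 and -0.71.

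**Figure D1:**
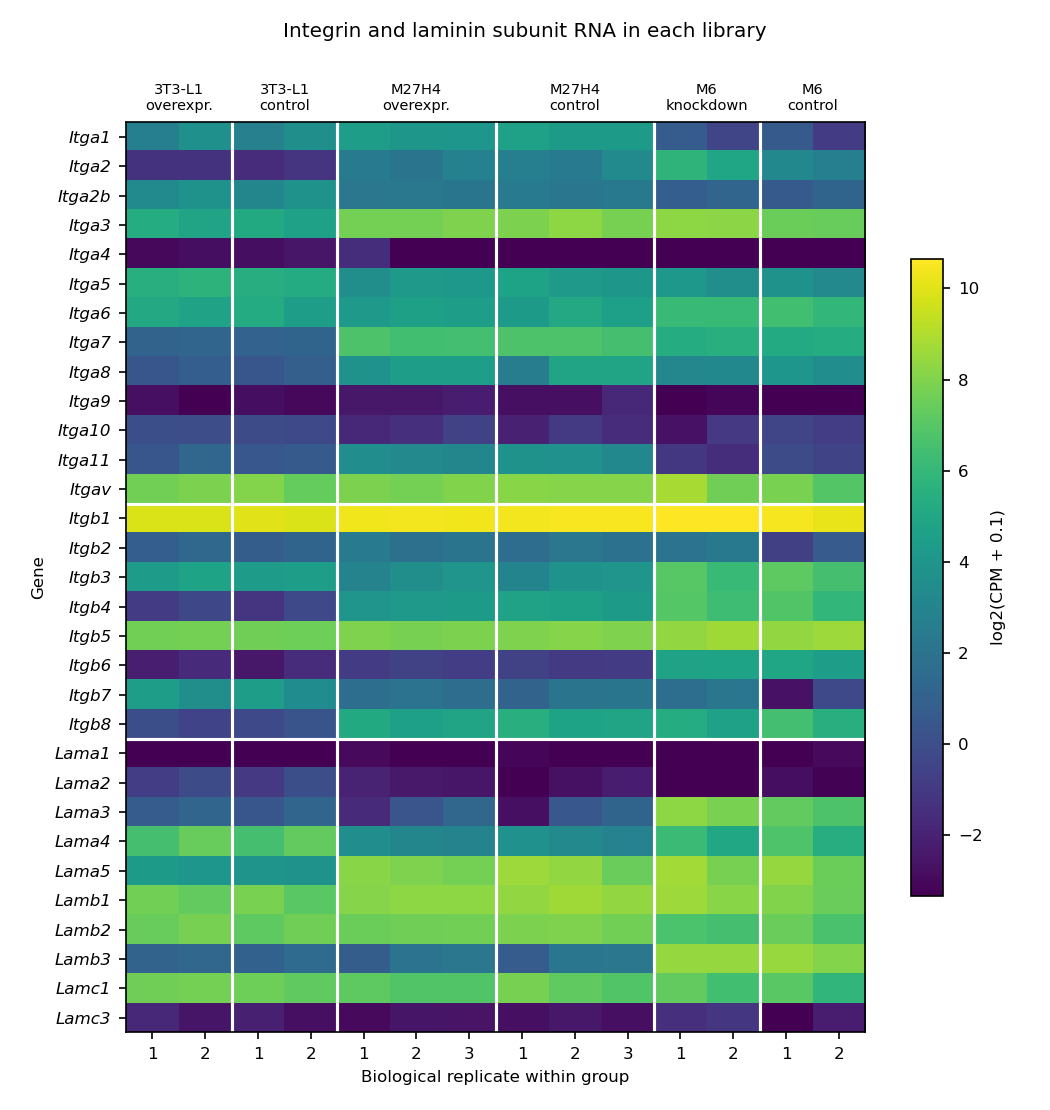
Level of each integrin and laminin gene (rows) in each of the 14 biological replicates (columns, grouped by line and treatment), as log2(CPM + 0.1). The lines differ in many rows, while treated and control replicates of the same line look alike in most, with Itga2 in M6 a visible exception.

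Itga2 was higher in M6 libraries with Esrp2-as knockdown than in M6 control. This gene encodes the alpha chain of integrin alpha2beta1, a receptor for collagen that also binds laminin. It lies on chromosome 13 from 114833081 to 114932100 on the minus strand (GRCm38, GENCODE M21). Itga2 had 55.1 and 29.8 CPM in the 2 knockdown replicates and 9.09 and 6.35 CPM in the 2 control replicates. The lower knockdown replicate was thus over 3 times the higher control replicate. The means were 42.5 ± 17.9 CPM in knockdown and 7.72 ± 1.93 CPM in control (SD, n = 2 each). The log2 fold change was 2.46 (SE 0.39, 95% interval 1.63 to 3.30), 5.51-fold, with an adjusted p of 0.0274 over all genes in edgeR's quasi-likelihood test. In these bulk libraries more cells with the transcript and more transcript per cell cannot be told apart. The labels call the M6 control an empty vector and do not say whether it received a gapmer. Gapmer treatment and loss of Esrp2-as therefore cannot be told apart in any M6 difference given here.

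The 7 deposited columns are the same biological replicates before summing, so they and any subset of them add no replication. They were separate by group. As CPM of the column's own total, Itga2 was at 59.1, 26.3 and 30.3 in the 3 knockdown columns and at 9.84, 7.21, 5.59 and 5.69 in the 4 control columns. Within the 4 columns that share the code LR-20281, 1 for each replicate, the log2 fold change was 2.33 with an edgeR adjusted p of 0.0342. Replicate 1 was the higher one in both groups, as it was for long genes in general, and Itga2 has 7133 bp of exons; its part in the size of the change was not tested. The call ended without knockdown replicate 1 (adjusted p = 0.268), without control replicate 1 (0.157) or without control replicate 2 (0.107). It also ended when only the M6 libraries were fitted (0.391). In each of these fits the log2 change stayed between 1.96 and 2.83.

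The promoter of Itga2 is shown because this gene alone among the 31 passed the test in a treatment comparison. The sequence is RefSeq's, chr13:114932051-114932350 of GRCm38.p6 on the minus strand and covers the annotated start, with a match to GGGCGG, the GC box, in capitals.
Itga2: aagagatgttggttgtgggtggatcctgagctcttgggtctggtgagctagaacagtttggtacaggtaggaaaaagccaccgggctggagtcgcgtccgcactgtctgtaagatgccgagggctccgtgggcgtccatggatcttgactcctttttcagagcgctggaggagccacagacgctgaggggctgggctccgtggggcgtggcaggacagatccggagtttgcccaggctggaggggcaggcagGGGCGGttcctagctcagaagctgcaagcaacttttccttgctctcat
Promoter sequences were at hand for 21 of the 31 genes. The GC box was present on either strand in 10 of these 21, and in 35.9% of 27025 promoters of the same length. Itga2 had 1 match to it and none to TGACTCA (the AP-1 motif, in 5.17% of promoters), CAGGTG (the E2 box, in 20% of promoters) or TATAAA (the TATA box, in 14.2% of promoters). Each motif was searched on both strands, and a window with 1 match has no overlapping motifs.

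Itga1, which encodes another collagen-binding alpha chain, lies 20996 bp from Itga2 on the same strand. It had 1.58 and 0.65 CPM in M6 knockdown and 1.47 and 0.467 CPM in M6 control. The groups overlapped, and the log2 difference of 0.24 had a 95% interval of -0.97 to 1.44. A log2 change of 2.46, that of Itga2, lies outside this interval. Itga11, a collagen receptor chain of mesenchymal cells, was lower by value in the knockdown, at 0.38 and 0.258 CPM against 0.849 and 0.617 CPM in control, but did not pass the test (log2 -1.22, edgeR adjusted p = 0.483). Itga10, the remaining collagen receptor chain, stayed under 1 CPM in all M6 libraries.

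Itga2 was the only 1 of the 30 subunit genes tested that passed in M6, where 0.137% of the 21237 genes tested were called with 0.122% called higher and 0.0141% lower. Lama1 was removed by the filter on low counts. An unadjusted p under 0.05 was found for 9 of the 30, and for 6.27% of all genes tested. The 30 log2 changes had a median of 0.18, against -0.03 over all genes, with 19 above 0 and 10 below.

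Next to Itga2, the smallest p-values belonged to Itgb2, Itgb7 and Itga3. Itgb2 and Itgb7 encode beta chains known from leukocyte integrins. Itgb2 had 3.92 and 4.91 CPM in knockdown and 0.538 and 1.52 CPM in control (log2 2.06, SE 0.44, edgeR adjusted p = 0.137). Itgb7 had 3.16 and 4.4 CPM in knockdown and 0.0621 and 0.743 CPM in control (log2 3.05, SE 0.71, edgeR adjusted p = 0.202). The replicate ranges were separate for both genes, yet neither passed the main test. Other fits placed them across the threshold: DESeq2 gave adjusted p = 0.000135 for Itgb2 and 0.000136 for Itgb7, and edgeR without control replicate 2 gave 0.0267 and 0.017. With only LR-20281 columns the edgeR values were 0.204 and 0.146. A list of 10 immune and platelet markers summed to 21.1 and 26.6 CPM in knockdown and 14.6 and 21.6 in control. Most of the higher sum in knockdown came from Ppbp, a platelet chemokine gene, at 8.59 and 10.6 CPM in knockdown and 2.19 and 2.61 CPM in control. Ptprc, the pan-leukocyte marker, had 0.612 and 0.89 CPM in knockdown and 0.166 and 0.396 CPM in control, and Cd68 of macrophages had 1.84 and 2.2 and 0.932 and 1.96 CPM in the same groups. Csf1r, the macrophage growth factor receptor, had 6.94 and 8.82 CPM in knockdown and 7.29 and 11.3 CPM in control, and Coro1a of leukocytes had 3.12 and 4.02 and 3.97 and 5.27 CPM. The markers thus did not run one way, with Ppbp and Ptprc separate and higher by value in knockdown and Csf1r and Coro1a overlapping and lower on average. Cd3e was at 0 in all 4 M6 libraries, and Cd79a, Laptm5, Pf4 and Gp9 were at or near 0. The part of other cells in the Itgb2 and Itgb7 values was not tested.

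Apart from Itga2, laminin receptor chains and laminins gave no call in M6. Itga3, the alpha chain of the laminin receptor alpha3beta1, had 306 and 295 CPM in knockdown and 179 and 172 CPM in control. These replicates lay close together within each group and did not overlap between groups, with a log2 difference of 0.77 (SE 0.23, edgeR adjusted p = 0.393). Itga6, the alpha chain shared by alpha6beta1 and the hemidesmosome receptor alpha6beta4, had 67 and 68.5 CPM in knockdown and 86.3 and 59.8 CPM in control. Itgb4, its hemidesmosome partner, had 127 and 78.8 CPM in knockdown and 116 and 59.9 CPM in control. Both pairs of groups overlapped. The common beta chain Itgb1 had 1609 and 1561 CPM in knockdown and 1396 and 1188 CPM in control, a log2 difference of 0.29 (95% interval -0.07 to 0.66). Among laminins, Lama3 had 316 and 227 CPM in knockdown and 159 and 106 CPM in control, with no overlap but a wide interval on the log2 scale, -1.33 to 3.40. Lamb1 had 383 and 291 CPM in knockdown and 254 and 179 CPM in control (log2 0.64, edgeR adjusted p = 0.705). Lamb1 was separate by value. Lama5 had 424 and 219 CPM in knockdown and 348 and 183 CPM in control, and Lamc1 had 156 and 84.7 CPM in knockdown and 136 and 58.5 CPM in control. In both genes the groups overlapped, and replicate 1 was higher in both. Lamb3 had 344 and 350.1 CPM in knockdown and 359 and 268 CPM in control, Lama4 had 72.6 and 33.2 CPM in knockdown and 114 and 41.5 CPM in control, and Lamb2 had 103 and 93.9 CPM in knockdown and 175 and 98.5 CPM in control. The knockdown values lay inside the control range for Lamb3 and overlapped it for Lama4 and Lamb2.

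Receptors of RGD ligands likewise passed no test in M6. Itgav, the alpha chain of the alphav integrins, had 454 and 198 CPM in knockdown and 232 and 118 CPM in control, overlapping groups with a log2 difference of 0.89 (edgeR adjusted p = 0.705). Itgb8, which pairs with Itgav in the activation of latent TGF-beta, was lower by value, at 39.4 and 25.4 CPM in knockdown against 90.6 and 43 CPM in control (log2 -1.04, edgeR adjusted p = 0.61). Itga5, the fibronectin receptor chain, had 17.2 and 11.9 CPM in knockdown and 14.5 and 9.37 CPM in control, with overlap. Itgb6, the epithelial partner of Itgav, had 26.3 and 27 CPM in knockdown and 31.2 and 22.9 CPM in control. The knockdown values of Itgb6 lay inside the control range. Itgb3 had 129 and 70.3 CPM in knockdown and 148 and 92.1 CPM in control, and Itgb5 had 336 and 408 CPM in knockdown and 340.0 and 386 CPM in control, both with overlap.

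**Figure D2:**
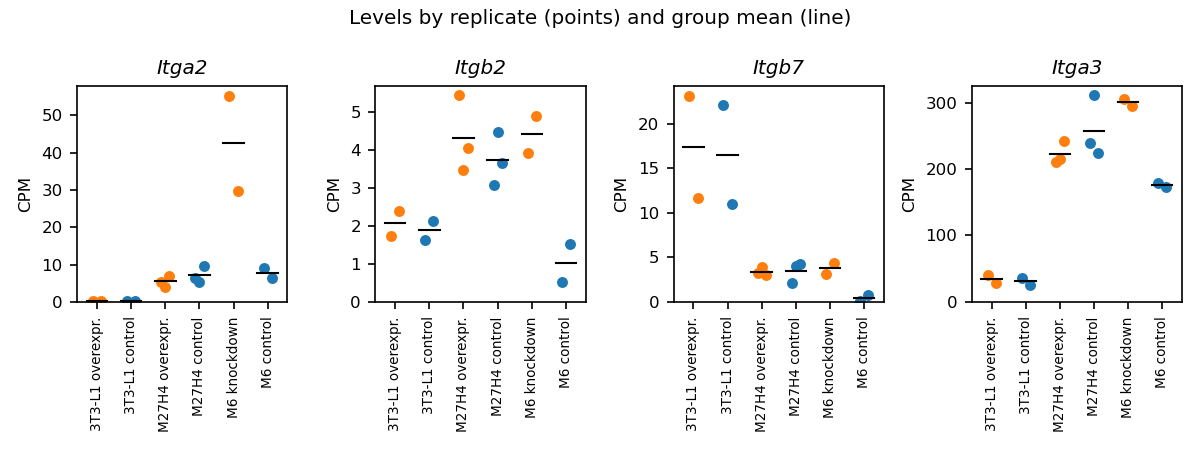
Levels (CPM, linear axes from 0) of Itga2, Itgb2, Itgb7 and Itga3, the 4 subunit genes of smallest p in the M6 comparison, in every replicate of the 6 groups (points; treated in orange, control in blue) with group means (lines). Itga2 in M6 knockdown, at 55.1 and 29.8 CPM, lies above every other library. Itgb2 in M6 knockdown, at 3.92 and 4.91 CPM, lies within the M27H4 libraries (3.09 to 5.45 CPM) and above those of 3T3-L1 (1.64 to 2.4 CPM). Itgb7 in M6 knockdown, at 3.16 and 4.4 CPM, lies near the M27H4 libraries (2.11 to 4.27 CPM) and below those of 3T3-L1 (11 to 23.1 CPM).

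Overexpression of Esrp2-as moved no subunit gene past the test in either line. In M27H4, 0 of 30 passed edgeR's test, where 0.00942% of all genes tested were called. An unadjusted p under 0.05 was found there for 0 of 30, and for 1.69% of all genes tested. In 3T3-L1, 0 of 30 passed, where 0.00471% of all genes were called. Again 0 of 30 had an unadjusted p under 0.05, against 0.946% of all genes. At such shares a count of 0 among 30 is no result about the subunits. DESeq2 and limma voom also called 0 of 30 in both lines. The 30 log2 changes had a median of -0.13 in M27H4, with 6 above 0 and 24 below, against -0.03 over all genes. In 3T3-L1 the median was 0.09, with 21 above 0 and 9 below, against 0 over all genes. The 24 genes with a group mean of at least 1 CPM in M27H4 had log2 differences between -0.40 and 0.20. The 21 such genes in 3T3-L1 lay between -0.08 and 0.40. Their 95% intervals reached from -1.87 to 2.17 in M27H4 and from -2.27 to 2.56 in 3T3-L1, so larger changes of the least certain genes were not detectable with these replicates.

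Itga2 itself had 5.39, 4.07 and 6.97 CPM in M27H4 overexpression and 6.47, 5.47 and 9.67 CPM in M27H4 control. The groups overlapped, and the 95% interval of the log2 difference ran from -1.05 to 0.26. In 3T3-L1 it had 0.306 and 0.311 CPM in overexpression and 0.237 and 0.347 CPM in control, too little for a direction. Of the genes with the smallest p in M27H4 that were above 1 CPM, Itga5 had 12, 18.8 and 17.1 CPM in overexpression and 27.2, 17.9 and 16.6 CPM in control (log2 -0.36, SE 0.25). Itgb4 had 15.8, 18.7 and 19.2 CPM in M27H4 overexpression and 26.7, 24.1 and 19.4 CPM in control, separate ranges that differed by -0.38 on the log2 scale (edgeR adjusted p = 1). Itga4 had the smallest p in this line with counts in 1 of the 6 libraries only, and no fold is given. In 3T3-L1 the smallest p belonged to Itga11, with 1.24 and 2.38 CPM in overexpression and 1.27 and 1.46 CPM in control; this difference of 0.40 turned negative without overexpression replicate 2. Itga5 had 44.9 and 51.4 CPM in 3T3-L1 overexpression and 41.1 and 38.3 CPM in control. Lama5 had 19.3 and 16.2 CPM in 3T3-L1 overexpression and 15.1 and 13.8 CPM in control. Itga5 and Lama5 were separate by value, and neither passed the test. Lamb2 had 170.4 and 221 CPM in 3T3-L1 overexpression and 145 and 196 CPM in control, with overlap, and none of these differences exceeded 0.40 on the log2 scale. 

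The most abundant chains were close in both overexpression comparisons. Itgb1 had 947 and 946 CPM in 3T3-L1 overexpression and 1026 and 934 CPM in 3T3-L1 control, and 1291, 1373 and 1316 CPM in M27H4 overexpression and 1348, 1454 and 1459 CPM in M27H4 control. Itgav had 204 and 235 CPM in 3T3-L1 overexpression and 270.1 and 161 CPM in 3T3-L1 control, and 236, 215 and 257 CPM in M27H4 overexpression and 287, 282 and 277 CPM in M27H4 control. For Itgb1 the log2 differences were -0.05 and -0.10, and for Itgav 0.03 and -0.26, in 3T3-L1 and M27H4. Of the laminin receptor chains, Itga3 had 40.9 and 28.6 CPM in 3T3-L1 overexpression and 36.2 and 25.7 CPM in 3T3-L1 control, and 211, 215 and 243 CPM in M27H4 overexpression and 239, 311 and 224 CPM in M27H4 control. Itga6 had 34.2 and 26.8 CPM in 3T3-L1 overexpression and 39.1 and 22.2 CPM in 3T3-L1 control, and 18.5, 24.6 and 22 CPM in M27H4 overexpression and 19.1, 33.8 and 23.2 CPM in M27H4 control. The groups overlapped for both genes in both lines. Among laminins, Lamb1 had 204 and 155 CPM in 3T3-L1 overexpression and 225 and 134 CPM in 3T3-L1 control, and 272, 313 and 314 CPM in M27H4 overexpression and 333, 401 and 339 CPM in M27H4 control. Lamc1 had 196 and 209 CPM in 3T3-L1 overexpression and 191 and 150.3 CPM in 3T3-L1 control, and 145, 116 and 117 CPM in M27H4 overexpression and 217, 151 and 116 CPM in M27H4 control. Lama5 had 288, 252 and 215 CPM in M27H4 overexpression and 394, 337 and 178 CPM in M27H4 control. Itgav and Lamb1 in M27H4 and Lamc1 in 3T3-L1 were separate by value, the other groups overlapped, and none passed. The difference between the overexpression effects in M27H4 and in 3T3-L1 was also tested. In edgeR 0 of 30 subunit genes passed, where 0.00471% of all genes were called. An unadjusted p under 0.05 was found for 0 of 30, and for 1.51% of all genes.

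**Figure D3:**
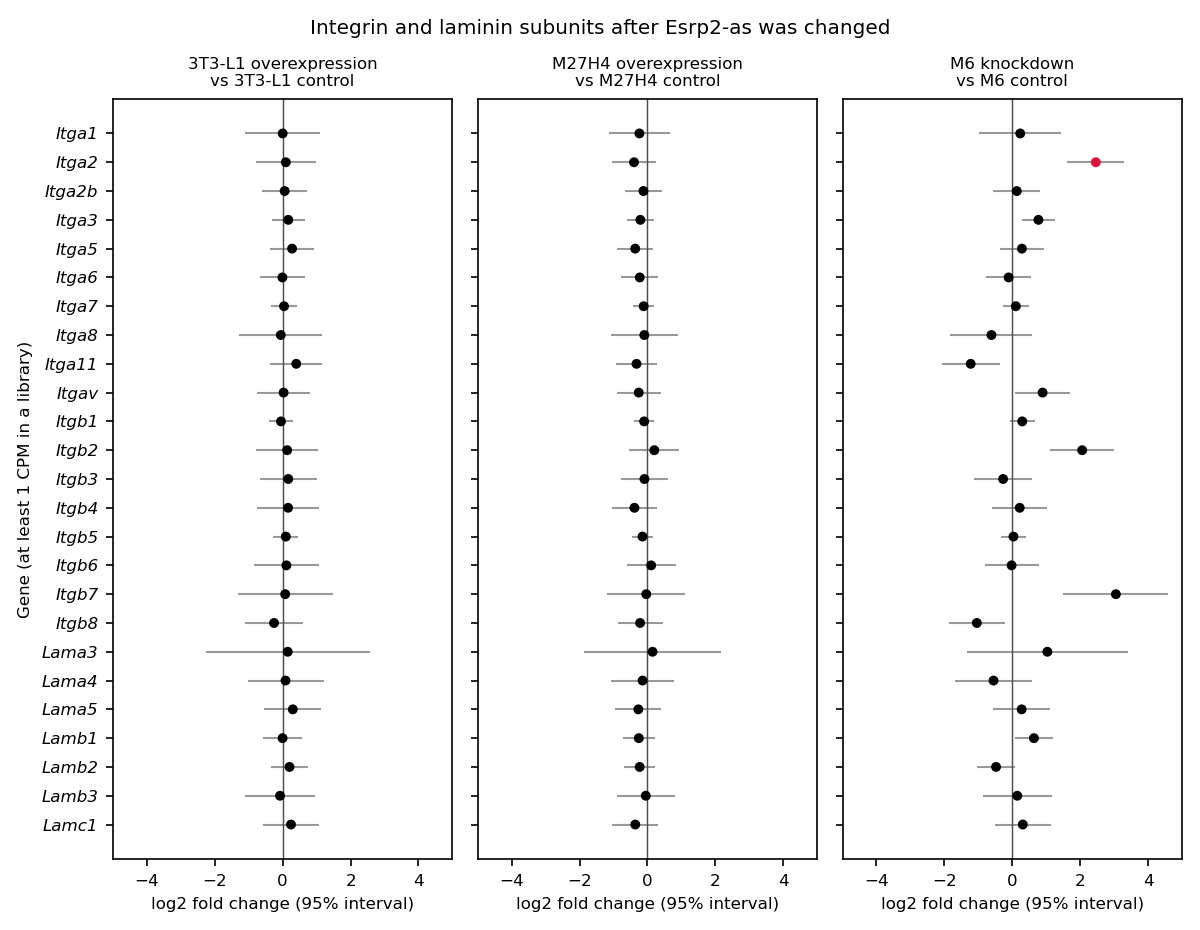
Log2 fold change, treated over control, with its 95% interval (edgeR) for the 25 subunit genes with at least 1 CPM in a library, in 3T3-L1, M27H4 and M6. Red marks an adjusted p under 0.05, which Itga2 in M6 reached at 2.46. Points in the 3T3-L1 and M27H4 panels lie between -0.40 and 0.40, with most of those in M27H4 below 0.

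The lines expressed different sets of chains. At a level of at least 1 TPM in every control replicate, 3T3-L1 expressed 14 of the 31 genes (5 integrin alpha, 4 integrin beta and 5 laminin chains). M27H4 expressed 20 (9, 6 and 5 of these kinds), and M6 expressed 20 (7, 6 and 7). With a bar of 5 TPM the counts were 10 in 3T3-L1, 9 in M27H4 and 17 in M6. TPM of a chain could differ widely between replicates, as for Itgb1 with 657 and 317 TPM in the 2 M6 control replicates, so chains are set against each other within a library, as the share of a chain in the summed TPM of its family. Itgb1 was the leading beta chain in all 14 libraries, with 79 to 79.4% of beta chain TPM in 3T3-L1 control, 79.6 to 82% in M27H4 control and 67.3 to 68.9% in M6 control. Itgb5, which pairs with Itgav to bind vitronectin, was second in every control group, with 17.5 to 17.8%, 15.4 to 17.5% and 18.8 to 24.4% in the same order. The other 6 beta chains made up the remainder.

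Alpha chains were divided more evenly and differently in each line. In 3T3-L1 control, Itgav held 49.4 to 58.7% of alpha chain TPM, with smaller shares from Itga5 at 12 to 15.2%, Itga6 at 9.56 to 12.1% and Itga3 at 9.6 to 9.66%. In M27H4 control, Itga3 held 32.1 to 38.5% and Itgav 30.2 to 36.5%, and Itga7, a laminin receptor chain best known from muscle, held 15.8 to 17.4%. In M6 control, Itga3 held 31.1 to 40.5%, Itgav 24.2 to 36.7%, Itga6 16.4 to 17.2% and Itga7 7.73 to 11.2%. The ranges of Itga3 and Itgav overlapped within both tumour lines, so their order there is not set by these replicates. By transcript length the mean shares were 34.7% for Itga3 and 34.0% for Itgav in M27H4 control, and 35.8% and 30.4% in M6 control. With lengths of all exons of a gene they were 45.2% for Itga3 and 26.6% for Itgav in M27H4 control, and 47.3% and 24.1% in M6 control. The size of the gap between the means thus depends on the length used. Itga2 took 2.99 to 4.19% of alpha chain TPM in M6 knockdown against 0.998 to 1.06% in M6 control, and so stayed a minor chain.

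Laminin alpha chains marked the lines most sharply. Lama4, the alpha chain of mesenchymal and vascular basement membranes, held 90.4 to 93.4% of laminin alpha TPM in 3T3-L1 control. Lama5, the widespread alpha chain of epithelial basement membranes, held 91 to 94.2% in M27H4 control. M6 control was mixed, with 39.4 to 40.1% from Lama5, 35.2 to 43.2% from Lama3 and 17.5 to 24.7% from Lama4. Lama3 and Lamb3 encode the alpha and beta chains of laminin-332, the laminin of epithelial anchoring contacts. Lamb3 held 0.713 to 1.04% of laminin beta TPM in 3T3-L1 control, 0.304 to 1.12% in M27H4 control and 52.3 to 55% in M6 control. In M6 knockdown, Lama3 held 49.1 to 59.8% and Lama4 9.08 to 12.7% of laminin alpha TPM. Both ranges lay apart from those of M6 control, as a description of 2 replicates with no test. By transcript length the mean shares in M6 control were 39.7% for Lama5 and 39.2% for Lama3. With lengths of all exons of a gene they were 55.2% and 30.3%, a wider gap in the same order. In M6 knockdown the means were 34.7% for Lama5 and 54.4% for Lama3 by transcript length. With lengths of all exons they were 47.9% and 44.7%, so there the order of the means depends on the length used.

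**Figure D4:**
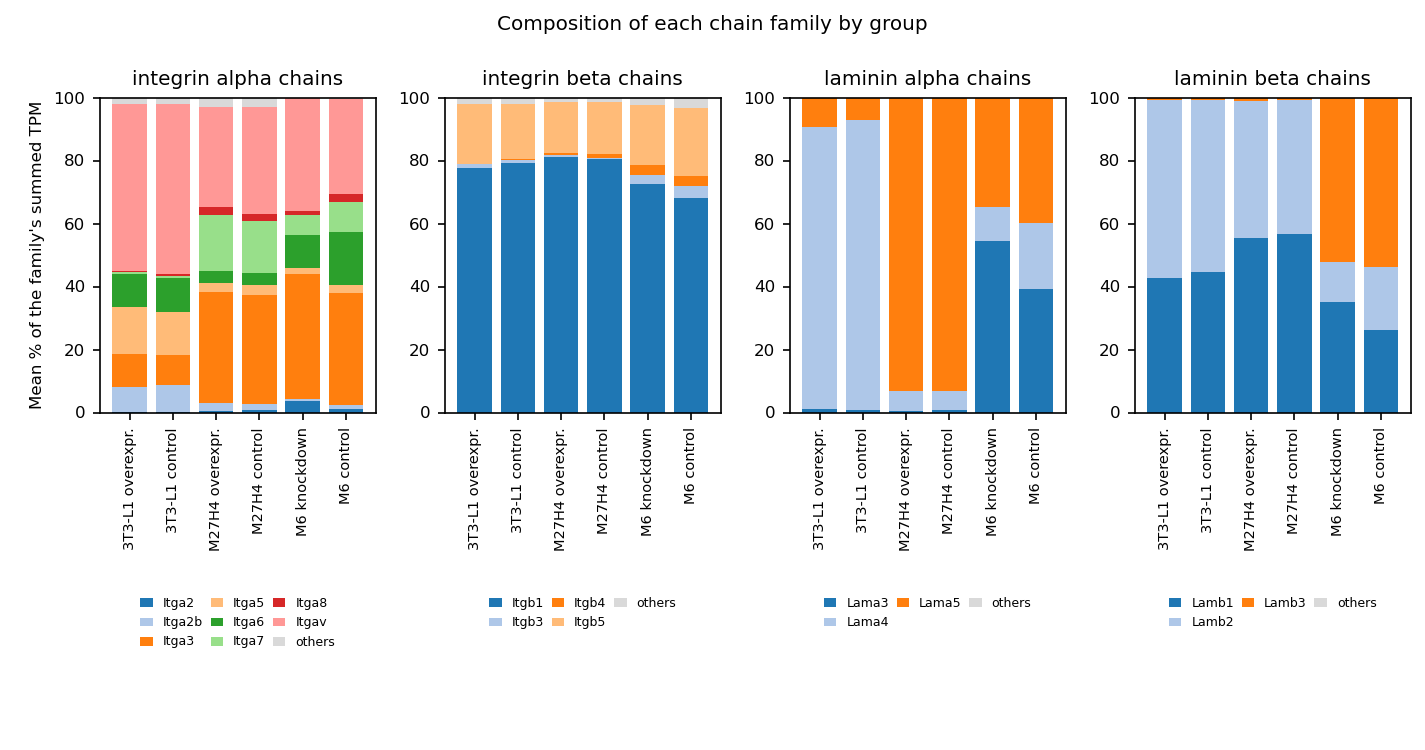
Mean share of each chain in the summed TPM of its family (integrin alpha, integrin beta, laminin alpha and the 3 listed laminin beta chains), as stacked bars by group; chains that reach 2% in no group are pooled as others. Lama4 leads the laminin alpha chains in 3T3-L1, Lama5 in M27H4, and in M6 Lama3, Lama4 and Lama5 are all present, with Lamb3 as the leading beta chain.

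Comparing M27H4 control with M6 control, 18 of 30 subunit genes passed edgeR's test, 9 higher and 9 lower in M27H4. Of all genes tested 30.2% were called, 15.2% higher and 15% lower. Between 3T3-L1 control and M6 control 18 of 30 passed, 5 higher and 13 lower in 3T3-L1, where 39.4% of all genes were called, 20.5% higher and 18.9% lower. Between 3T3-L1 control and M27H4 control 16 of 30 passed, 5 higher and 11 lower in 3T3-L1, where 36.6% of all genes were called, 18.9% higher and 17.8% lower. The 3 comparisons share control libraries and are given side by side, and a gene kept for its level in only some of the lines was bound to differ, so the counts describe the lines and support no statement about the families. The median log2 difference of the 30 genes was 0.37 for M27H4 over M6, 0.01 for 3T3-L1 over M6 and -0.48 for 3T3-L1 over M27H4, against 0.02, 0.05 and 0.02 over all genes.

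Among laminins, the epithelial chains Lama3 and Lamb3 were far lower in the other lines than in M6. Lamb3 had 1.91 and 2.83 CPM in 3T3-L1 control, 1.59, 4.38 and 4.57 CPM in M27H4 control and 359 and 268 CPM in M6 control. It was 132-fold lower in 3T3-L1 (log2 -7.05, SE 0.61, edgeR adjusted p = 2.19e-06) and 88.5-fold lower in M27H4 (log2 -6.47, SE 0.50, edgeR adjusted p = 1.17e-06). Lama3 had 1.22 and 2.24 CPM in 3T3-L1 control, 0.0488, 1.28 and 2.14 CPM in M27H4 control and 159 and 106 CPM in M6 control. Its log2 difference from M6 was -6.26 in 3T3-L1 and -6.79 in M27H4 (edgeR adjusted p = 0.00427 and 0.00142), and -7.50 in M27H4 without its control replicate 3. In M27H4 the low levels split by LR code, but code LR-20284 is carried only by replicate 1, so code and replicate cannot be told apart. As CPM of the column's total, Lama3 was at 0.0496 to 0.229 in the 2 M27H4 columns with code LR-20284. It was at 0.818 to 2.31 in the 6 M27H4 columns whose codes M6 columns also carry. Lamb3 was at 1.62 to 1.69 in the same 2 columns and at 3.33 to 4.76 in the other 6. In 3T3-L1, where all 6 columns carry codes shared with M6, Lama3 was at 1.01 to 2.28 and Lamb3 at 1.87 to 2.89. Whether reads of M6 libraries make up part of these low values was not tested, and the folds rest on them.

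Lama4 and Lama5 ran in other directions. Lama4 had 91.7 and 155 CPM in 3T3-L1 control, 13.4, 9.54 and 7.1 in M27H4 control and 114 and 41.5 in M6 control. It was 12.3-fold higher in 3T3-L1 than in M27H4 (log2 3.62, SE 0.48, edgeR adjusted p = 0.00011) and 7.74-fold lower in M27H4 than in M6 (edgeR adjusted p = 0.000496; log2 -2.95, or -2.05 without M6 control replicate 1). Lama5 had 15.1 and 13.8 CPM in 3T3-L1 control, 394, 337 and 178 in M27H4 control and 348 and 183 in M6 control. It was lower in 3T3-L1 than in M27H4 (log2 -4.39, edgeR adjusted p = 4.54e-06) and than in M6 (log2 -4.20, edgeR adjusted p = 6.27e-06), while M27H4 and M6 overlapped. Lamc1, the common gamma chain, had 191 and 150.3 CPM in 3T3-L1 control, 217, 151 and 116 in M27H4 control and 136 and 58.5 in M6 control, and passed in no comparison. Lamb1, the common beta chain, had 225 and 134 CPM in 3T3-L1 control, 333, 401 and 339 in M27H4 control and 254 and 179 in M6 control. It passed as higher in M27H4 than in M6 (log2 0.72, edgeR adjusted p = 0.0395) and as lower in 3T3-L1 than in M27H4 (log2 -0.99, edgeR adjusted p = 0.0065). The M27H4 to M6 call of Lamb1 ended without M6 control replicate 2 (adjusted p = 0.236) or any of M27H4 control replicates 1 (0.0509), 2 (0.111) and 3 (0.0615), and between M27H4 overexpression and M6 knockdown the log2 difference was -0.17. Its call in 3T3-L1 against M27H4 ended without 3T3-L1 control replicate 2 (0.14). Lamb2, called higher in M27H4 than in M6 (log2 0.74, edgeR adjusted p = 0.0301), lost its call without M6 control replicate 2 (0.241), M27H4 control replicate 1 (0.0635) or M27H4 control replicate 2 (0.0779). Lama1, Lama2 and Lamc3 stayed under 1 CPM in all 14 libraries. Of these, Lama2 was called higher in 3T3-L1 than in M6 and than in M27H4, from 0.401 and 0.937 CPM in 3T3-L1 control against 0, 0.0524 and 0.106 in M27H4 control and 0.0414 and 0.00649 in M6 control. No fold is given at these levels, and the call against M27H4 ended without 3T3-L1 control replicate 2 (edgeR adjusted p = 0.062).

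The 4 laminin receptor chains each differed between some of the lines, in different orders. Itgb4 had 0.323 and 0.735 CPM in 3T3-L1 control, 26.7, 24.1 and 19.4 in M27H4 control and 116 and 59.9 in M6 control. All 3 lines were separate in this gene: it was 169.6-fold lower in 3T3-L1 than in M6 (log2 -7.41, SE 0.51, edgeR adjusted p = 1.46e-07) and 3.77-fold lower in M27H4 than in M6 (log2 -1.91, edgeR adjusted p = 0.000753). Without 3T3-L1 control replicate 2 the 3T3-L1 log2 differences were -8.13 from M6 and -6.15 from M27H4, where all libraries gave -7.41 and -5.49. Its partner Itga6 had 39.1 and 22.2 CPM in 3T3-L1 control, 19.1, 33.8 and 23.2 in M27H4 control and 86.3 and 59.8 in M6 control. It was lower than in M6, by log2 -1.52 in M27H4 (edgeR adjusted p = 0.000894) and log2 -1.25 in 3T3-L1 (edgeR adjusted p = 0.00613); the 3T3-L1 call ended without M6 control replicate 1 (0.0582) or 3T3-L1 control replicate 2 (0.0738). Itga3 had 36.2 and 25.7 CPM in 3T3-L1 control, 239, 311 and 224 in M27H4 control and 179 and 172 in M6 control. It was low in 3T3-L1 against both tumour lines (log2 -3.06 and -2.51, edgeR adjusted p = 5.62e-07 and 2.9e-06). Itga7 had 2.01 and 2.18 CPM in 3T3-L1 control, 106, 109 and 91.4 in M27H4 control and 37.3 and 40.1 in M6 control. The replicates of each line lay close together and the lines did not overlap. The log2 difference was -5.61 (SE 0.21, edgeR adjusted p = 4.13e-09) in 3T3-L1 against M27H4 and 1.40 (SE 0.17, edgeR adjusted p = 2.77e-05) in M27H4 against M6.

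Of the 4 collagen receptor chains, Itga1 and Itga11 were called higher in M27H4 than in M6, and Itga2 and Itga10 were not called between these lines. Itga1 had 6.8 and 12.4 CPM in 3T3-L1 control, 25.9, 19.2 and 19.7 in M27H4 control and 1.47 and 0.467 in M6 control. It was 23.5-fold higher in M27H4 than in M6 (log2 4.56, SE 0.59, edgeR adjusted p = 5.5e-05), with log2 3.89 without M6 control replicate 2 and 5.53 without M6 control replicate 1. In 3T3-L1 it was 10.4-fold higher than in M6 (edgeR adjusted p = 0.000408; log2 3.39, or 2.72 and 4.36 without M6 control replicate 2 and 1). Itga11 had 1.27 and 1.46 CPM in 3T3-L1 control, 14.2, 13.6 and 8.97 in M27H4 control and 0.849 and 0.617 in M6 control, so M27H4 stood apart (17-fold higher than M6, log2 4.08, SE 0.39, edgeR adjusted p = 3.82e-06). Itga2 went the other way in 3T3-L1. It had 0.237 and 0.347 CPM there, 6.47, 5.47 and 9.67 in M27H4 control and 9.09 and 6.35 in M6 control, and was 24.9-fold lower in 3T3-L1 than in M27H4 (log2 -4.64, edgeR adjusted p = 2.43e-06) and 26.6-fold lower than in M6 (log2 -4.73, edgeR adjusted p = 2.12e-06). M27H4 and M6 control overlapped in Itga2, with a log2 difference of -0.10 (95% interval -0.82 to 0.63). Itga10 was under 1 CPM in every library.

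Receptors of RGD ligands showed a broad base and line-specific partners. Itgav had 270.1 and 161 CPM in 3T3-L1 control, 287, 282 and 277 in M27H4 control and 232 and 118 in M6 control and passed in no line comparison. Itgb1 had 1026 and 934 CPM in 3T3-L1 control, 1348, 1454 and 1459 in M27H4 control and 1396 and 1188 in M6 control. It was called only as lower in 3T3-L1 than in M27H4 (log2 -0.54, edgeR adjusted p = 0.0155), a call that ended without 3T3-L1 control replicate 1 (0.0564) or 2 (0.15). Partners of Itgav differed between lines. Itgb6 had 0.0865 and 0.242 CPM in 3T3-L1 control, 0.553, 0.414 and 0.457 in M27H4 control and 31.2 and 22.9 in M6 control. It was lower than in M6, with log2 -7.41 in 3T3-L1 and -5.84 in M27H4 (edgeR adjusted p = 1.26e-07 and 1.99e-07), the first of which was -8.30 without 3T3-L1 control replicate 2. Its call as lower in 3T3-L1 than in M27H4 (log2 -1.57, or -2.41 without 3T3-L1 control replicate 2) ended without 3T3-L1 control replicate 1 (edgeR adjusted p = 0.111). Itgb5 had 200.1 and 187 CPM in 3T3-L1 control, 247, 282 and 247 in M27H4 control and 340.0 and 386 in M6 control, lower than in M6 in 3T3-L1 (log2 -0.91, edgeR adjusted p = 0.000934) and in M27H4 (log2 -0.49, edgeR adjusted p = 0.0287). The M27H4 call of Itgb5 ended without M6 control replicate 2 (0.161), M27H4 control replicate 1 (0.0667) or M27H4 control replicate 3 (0.0836). Itgb8 had 0.737 and 1.13 CPM in 3T3-L1 control, 44.5, 27.9 and 28.9 in M27H4 control and 90.6 and 43 in M6 control. In 3T3-L1 it was 36.3-fold lower than in M27H4 (log2 -5.18, edgeR adjusted p = 1.3e-06) and 71.8-fold lower than in M6 (log2 -6.17, or -5.52 without M6 control replicate 1; edgeR adjusted p = 3.81e-07). In M27H4 Itgb8 was called lower than in M6 (log2 -0.98, edgeR adjusted p = 0.0425), a call that ended without M6 control replicate 1 (0.586), M27H4 control replicate 2 (0.129) or M27H4 control replicate 3 (0.12). Itgb3, known from platelets, endothelium and invasive tumour cells, had 20.4 and 22.8 CPM in 3T3-L1 control, 7.8, 13.7 and 15.4 in M27H4 control and 148 and 92.1 in M6 control. It was 9.74-fold lower in M27H4 than in M6 (log2 -3.28, SE 0.37, edgeR adjusted p = 1.44e-05). Itga5 was high in 3T3-L1, with 41.1 and 38.3 CPM against 27.2, 17.9 and 16.6 in M27H4 control and 14.5 and 9.37 in M6 control. It was 3.33-fold higher than in M6 (log2 1.74, edgeR adjusted p = 0.000589) and 1.93-fold higher than in M27H4 (log2 0.95, edgeR adjusted p = 0.0145). The Itga5 call against M27H4 ended without M27H4 control replicate 3 (0.0556), 3T3-L1 control replicate 1 (0.0917) or 3T3-L1 control replicate 2 (0.0601). Itga8, another RGD receptor chain, had 1.25 and 1.81 CPM in 3T3-L1 control, 5.66, 28.2 and 28.4 in M27H4 control and 16 and 11.6 in M6 control. M27H4 control replicate 1 stood below the other replicates of that line but above 3T3-L1, and the difference of 3T3-L1 from M27H4 was log2 -3.77 (SE 0.60, edgeR adjusted p = 0.000321).

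Chains best known from leukocytes and platelets were low but not equal between lines. Itgb7 had 22.1 and 11 CPM in 3T3-L1 control, 2.11, 4.02 and 4.27 in M27H4 control and 0.0621 and 0.743 in M6 control. In 3T3-L1 it was higher than in M6 (log2 5.18, SE 0.78, edgeR adjusted p = 0.000186) and than in M27H4 (log2 2.25, edgeR adjusted p = 0.00935; 0.0969 without 3T3-L1 control replicate 1). The difference of 3T3-L1 from M6 was 4.49 without M6 control replicate 1, 8.05 without M6 control replicate 2 and 4.59 without 3T3-L1 control replicate 1. Itgb2 had 3.09, 4.49 and 3.65 CPM in M27H4 control and 0.538 and 1.52 CPM in M6 control, with no overlap. Between M27H4 and M6 control, Itgb7 and Itgb2 passed as higher in M27H4 (log2 2.93 and 1.82, edgeR adjusted p = 0.00553 and 0.00412). Without M6 control replicate 2 these differences were 5.80 and 2.81, and for Itgb7 2.23 without M6 control replicate 1. Between M27H4 overexpression and M6 knockdown, in place of the controls, the differences were -0.16 for Itgb7 and -0.038 for Itgb2. Itga2b, the platelet fibrinogen receptor chain, had 8.38 and 14.3 CPM in 3T3-L1 control, 5.18, 4.43 and 5.01 in M27H4 control and 1.43 and 2.15 in M6 control. It was 6.28-fold higher in 3T3-L1 than in M6 (log2 2.65, edgeR adjusted p = 3e-05), 2.7-fold higher in M27H4 than in M6 (edgeR adjusted p = 0.00248) and 2.33-fold higher in 3T3-L1 than in M27H4 (edgeR adjusted p = 0.00387, or 0.0801 without 3T3-L1 control replicate 2). Its coding transcript took as little as 31.6% of its counts in a column, the rest going to annotated transcripts without a coding frame. Itga4 and Itga9 stayed under 1 CPM in all libraries, and Itga9 had 0 counts in both M6 control replicates. Itga9 was called higher in M27H4 than in M6 at this level, a call that ended without M6 control replicate 2 (edgeR adjusted p = 0.177) or M27H4 control replicate 3 (0.0538).

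**Figure D5:**
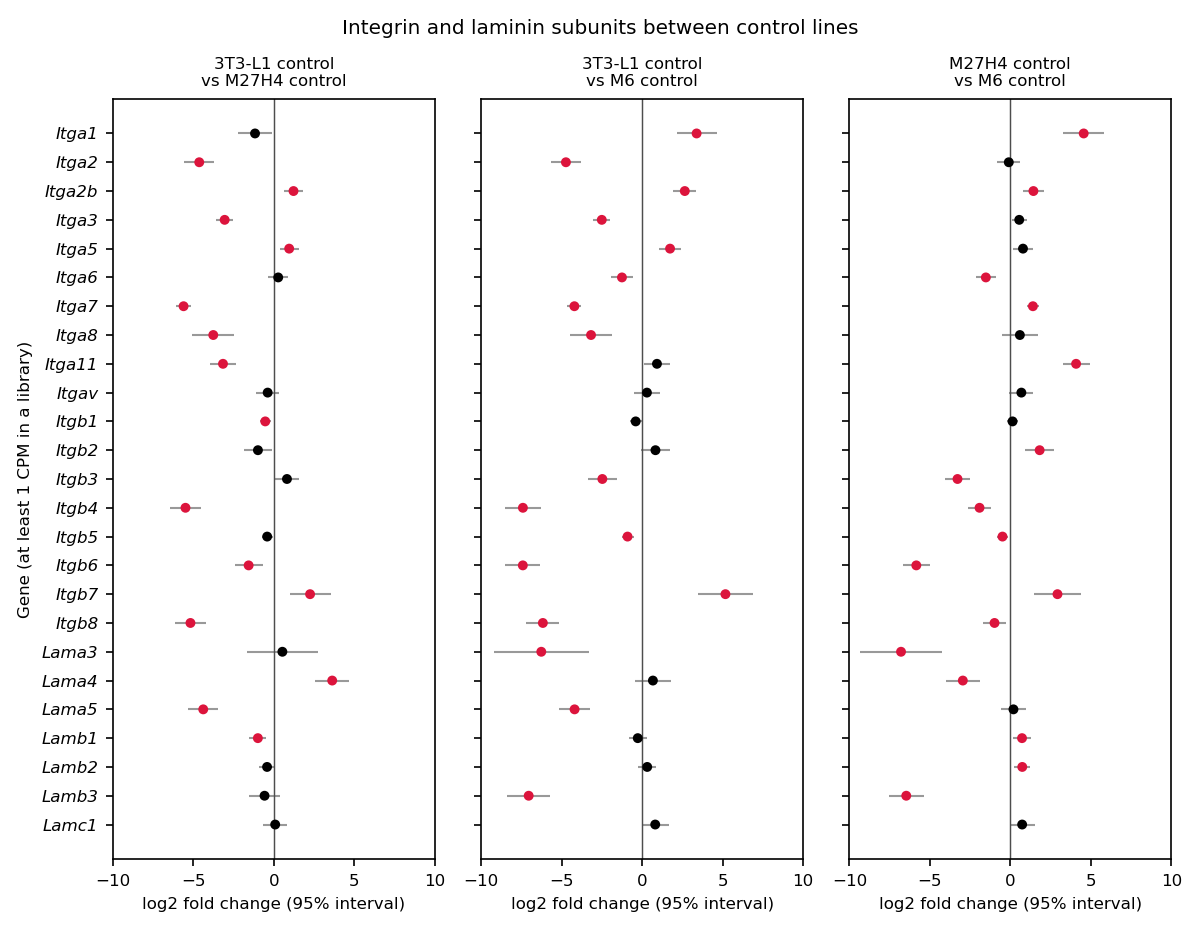
Log2 fold change between control groups, first-named line over second, with its 95% interval (edgeR) for the 25 subunit genes with at least 1 CPM in a library. Red marks an adjusted p under 0.05. Lama3, Lamb3 and Itgb6 lie far to the left in both comparisons with M6, and Itga7, Itgb4, Itgb8 and Lama5 far to the left in 3T3-L1 against M27H4.

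Transcripts were examined because integrin alpha6 and alpha3 exist in forms with different cytoplasmic tails, called A and B, made by choice of an exon near the end of the gene. The coding ends of both Itga6 forms (chromosome 2, plus strand, GENCODE M21 transcripts) are printed because the choice between them is what the transcript counts report. The last 12 shared coding bases are in lower case, and the bases of each form's own end, up to and including the stop codon, are in capitals.
Itga6-201, form A: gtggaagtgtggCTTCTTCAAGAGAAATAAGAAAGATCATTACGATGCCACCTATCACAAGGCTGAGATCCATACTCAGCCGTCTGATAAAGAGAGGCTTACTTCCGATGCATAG
Itga6-202, form B: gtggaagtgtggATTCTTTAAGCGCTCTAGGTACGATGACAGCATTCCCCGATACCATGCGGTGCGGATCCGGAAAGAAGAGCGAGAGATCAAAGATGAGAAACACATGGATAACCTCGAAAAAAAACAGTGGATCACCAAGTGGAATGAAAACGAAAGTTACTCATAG
Form A held 94.5 and 90.7% of Itga6 counts in 3T3-L1 control, 95.5, 93.4 and 94.7% in M27H4 control and 96 and 90.7% in M6 control. Form B held at most 8.17% in any of the 14 replicates. Form A was thus the main form in all 3 lines and in treated libraries too, with 96.1 and 96.7% in 3T3-L1 overexpression, 88.6, 90.7 and 88.9% in M27H4 overexpression and 96.8 and 89.8% in M6 knockdown. The main transcript of Itga3, Itga3-201, whose tail form was not assigned here, held 98.7 and 76.9% in M6 knockdown and 99.2 and 97.2% in M6 control. It held 96.2, 86 and 97.9% in M27H4 overexpression and 95.9, 92.7 and 97.8% in M27H4 control. In 3T3-L1 it held 92 and 67.9% in overexpression and 98.2 and 95.6% in control. Another coding transcript, Itga3-203, held 27.4% in 3T3-L1 overexpression replicate 2. Lama3 is read from a long and a short transcript with separate starts. The short transcript, Lama3-202, held 74.6 and 87.8% of Lama3 counts in M6 knockdown and 94.1 and 90.8% in M6 control. The deposited M6 columns overlapped, with 74.6, 88.7 and 87.3% in knockdown and 94.1, 87.5, 84.9 and 98% in control. Lama3-202 held 0 and 30.3% in 3T3-L1 control and 0, 37.6 and 72.5% in M27H4 control, from 3 to 277 Lama3 counts per replicate. The share of Itgb1 counts in Itgb1-202, a transcript with a coding frame of 174 bases, was 16 and 22.1% in 3T3-L1 control, 12.5, 18.5 and 23.6% in M27H4 control and 20 and 21.9% in M6 control, ranges that overlapped. For Itgb4 the share of Itgb4-205 was 0.0711 and 63.8% in the 2 M6 control replicates, so its transcript shares were not stable between replicates and are not compared. Itga2 and Itga7 had all their counts in a transcript each. Shares are estimates from read coverage, and no test was made on them.

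Genes that act with the subunits gave no call in edgeR's test in a treatment comparison. Of all genes tested, 0.137% were called in M6, 0.00942% in M27H4 and 0.00471% in 3T3-L1. At such shares counts of 0 are no result about these lists. In all 3 treatments 0 of 30 genes of integrin activators and the adhesion plaque, 0 of 7 tested hemidesmosome and tetraspanin partners, 0 of 12 other basement membrane genes, 0 of 17 tested other integrin ligands, 0 of 8 collagens and 0 of 6 other laminin receptors passed edgeR's test. Over the 80 of 82 genes of these lists that were tested, edgeR gave an unadjusted p under 0.05 for 6 in M6. There 6.27% of all genes had one. It gave such a p for 0 in M27H4 and 0 in 3T3-L1, where 1.69% and 0.946% of all genes had one. DESeq2 called 3 in M6 (Col4a6, Col6a1 and Col6a2), where it called 235 of all 21237 genes. With limma voom 1 was called in M6 (Col6a1), where 74 of all 21237 genes were. Both tools called 0 of these list genes in the other lines. The collagen genes had the smallest p-values in M6: Col6a1, a chain of collagen VI, was at 116 CPM against 255 CPM, log2 -1.14, adjusted p 0.0686 in knockdown against control, and Col6a2, another chain, was at 41.4 CPM against 86.6 CPM, log2 -1.07, adjusted p 0.126. In the basement membrane list Col4a5, a collagen IV chain, was at 59.7 CPM against 112 CPM, log2 -0.91, adjusted p 0.267. None of these 3 passed in edgeR, and the summed collagens were 309.7 and 281 CPM in knockdown and 565 and 471 CPM in control.

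Between control groups of the lines, genes of every one of these lists were called. Of all genes tested, 30.2% were called in M27H4 against M6, 39.4% in 3T3-L1 against M6 and 36.6% in 3T3-L1 against M27H4, and shares of a list near these are no result about the list. Of the activator and plaque list, 13 of 30 were called between M27H4 and M6 (6 higher, 7 lower), 11 of 30 between 3T3-L1 and M6 (8 higher, 3 lower) and 12 of 30 between 3T3-L1 and M27H4 (8 higher, 4 lower). Fermt1, the epithelial kindlin that activates integrins, was at 0.391 CPM against 61.6 CPM, log2 -7.20, adjusted p 7.69e-05 in M27H4 against M6 and at 0.225 CPM against 61.6 CPM, log2 -8.15, adjusted p 0.000126 in 3T3-L1 against M6. As for Lama3, the low Fermt1 values in M27H4 control split by LR code and replicate alike. They were 0.0488 CPM in replicate 1 and 0.576 CPM and 0.547 CPM in replicates 2 and 3, and the fold rests on them. Fermt2, the widespread kindlin, went the other way, at 89.5 CPM against 29.1 CPM, log2 1.62, adjusted p 4.77e-05 and 75.6 CPM against 29.1 CPM, log2 1.38, adjusted p 0.000218. Of the collagens, 3 of 8 were higher in M27H4 than in M6, 7 of 8 in 3T3-L1 than in M6 and 4 of 8 in 3T3-L1 than in M27H4, with none lower. Col1a1 was at 494 CPM against 2.86 CPM, log2 7.41, adjusted p 0.00155 in 3T3-L1 against M6. Basement membrane genes other than laminins were higher in 5 and lower in 2 of 12 in M27H4 against M6, higher in 7 and lower in 1 in 3T3-L1 against M6, and higher in 8 and lower in 1 in 3T3-L1 against M27H4. Sparc was at 809.7 CPM against 145 CPM, log2 2.48, adjusted p 6e-06 in M27H4 against M6. Among other integrin ligands 3 of 17 were higher and 8 lower in M27H4 against M6, 5 higher and 4 lower in 3T3-L1 against M6, and 7 higher and 5 lower in 3T3-L1 against M27H4. Spp1 (osteopontin), a ligand of alphav integrins, was at 10349 CPM against 1509 CPM, log2 2.78, adjusted p 4.61e-06 in M27H4 against M6, and Fbn1 (fibrillin 1), another RGD ligand, at 587 CPM against 39.9 CPM, log2 3.88, adjusted p 3.98e-06 in 3T3-L1 against M6. Non-integrin laminin receptors were called in 4 of 6 (2 higher, 2 lower), 5 of 6 (1 higher, 4 lower) and 4 of 6 (all lower) in M27H4 against M6, 3T3-L1 against M6 and 3T3-L1 against M27H4. Bcam, a receptor for laminins with the Lama5 chain, was at 0.351 CPM against 18.6 CPM, log2 -5.74, adjusted p 5e-06 in M27H4 against M6 although Lama5 itself overlapped between these lines. Hemidesmosome and tetraspanin partners were called in 2 of 7 (1 higher, 1 lower), 3 of 7 (all higher) and 4 of 7 (3 higher, 1 lower) in the same comparisons. Of these, Cd82, a tetraspanin, was at 35.3 CPM against 78.2 CPM, log2 -1.15, adjusted p 0.00032 in M27H4 against M6.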

How the data were processed

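The measurements were RNA-seq expected counts per gene and per transcript, as deposited by the authors. Per the labels' protocols, total RNA was extracted with RNeasy, depleted with Ribo-Zero Gold and prepared with a strand-specific SureSelect kit. The submitters' processing notes name cutadapt, HISAT2, StringTie and edgeR with mm10 (GRCm38), and versions and the strand setting of counting are not given in the sources used here. Of the 31 subunit genes, 10 share exonic bases with another annotated gene (Itga1, Itga4, Itga7, Itga8, Itga10, Itgav, Itgb4, Lama2, Lama3 and Lamc3). That gene lies on the same strand for Itga1 and Itga10 and on the opposite strand for the others. Whether reads of opposite strands were kept apart depends on the strand setting and is not known. Counts were rounded, and the 21 columns were summed to 14 biological replicates in 6 groups. Gene symbols came from GENCODE M21. TPM was computed from the transcript counts and lengths. edgeR 4.0.16 (R 4.3.3) fitted all replicates together by quasi-likelihood, with TMM scaling, filterByExpr and robust estimates (8 residual degrees of freedom, biological coefficient of variation 0.323), and p-values were adjusted by Benjamini-Hochberg over 21237 genes, with a threshold of 0.05. Alternatives were median-ratio scaling, no filter, DESeq2 1.42.0, limma voom 3.58.1, a replicate block, the compared groups only, M6 columns of 1 code, the treated libraries in place of controls, other TPM thresholds, another gene length and leaving out each replicate. Levels as CPM per kilobase of transcript, in place of TPM, were added after seeing the data. The members and lists were chosen with earlier results of these data known. Values per replicate are given for members called in a treatment or of smallest p there, for the largest called line differences at 1 CPM or more with separate ranges (up to 6 in each direction), and for 10 chains in every comparison. Other called members are named where a library ended the call.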

Additional observations from a re-analysis of the deposited data

How the results depend on the processing

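The number of subunit genes called in M6 knockdown against control was 1, where 29 of all 21237 genes tested were called. It became 2 without the filter on low counts, where 64 of 34769 were called. DESeq2 gave 3, where 235 of 21237 were called, and a replicate block gave 3, where 293 of 21237 were called. Fitting only the M6 groups gave 0, where 0 of 17713 were called. The number over all genes thus moved with the setting too. Leaving out a replicate gave 0 to 2. The log2 change of Itga2 was 1.96 to 2.83 over the fits without a replicate and 2.49 with the M6 groups alone, with edgeR adjusted p-values of 0.0114 to 0.391 over these. The other alternatives kept its call, from 2e-06 with DESeq2 to 0.0404 with median-ratio scaling. The replicate block also called Itgb2 and Itgb7 (edgeR adjusted p = 0.0235 and 0.021), and without the filter Itgb2 passed (0.0266). Same-numbered replicates deviated together with r of 0.70 in M6, 0.55 in 3T3-L1 and 0.48, 0.06 and 0.34 in M27H4, across 9544 genes, which are not independent replicates. Same-numbered treated and control replicates carry the same LR codes in M27H4 and 3T3-L1, while in M6 a code is common to both numbers. The labels do not say what the code stands for, and the numbers were not taken to pair the samples. Overexpression gave 0 calls under every alternative run, as did the difference between the overexpression effects. Between control groups, over the fits with all replicates, the number called ranged from 13 to 19 for M27H4 against M6. It ranged from 18 to 22 for 3T3-L1 against M6 and from 15 to 20 for 3T3-L1 against M27H4. Calls over all genes ranged from 4890 to 7216, 7101 to 9045 and 7378 to 8562 in the same fits and order. Leaving out a replicate ended some calls, as named above. Of the 52 calls in these comparisons, 37 kept their direction and side of the threshold under all alternatives. The M27H4 to M6 calls of Lamb1, Itgb8, Lamb2 and Itgb5 changed most often, under 9, 7, 6 and 5 of 12 alternatives. For each of these genes that is more than the left-out replicates named above. Signs reversed for Itga11 in 3T3-L1 overexpression without overexpression replicate 2 (-0.14; the fits without a replicate gave -0.14 to 0.80), and, with treated libraries in place of controls in M27H4 against M6, for Itgb2 (-0.038), Itgb7 (-0.16) and Lamb1 (-0.17); the cause was not tested. The number of chains expressed in M27H4 control was 20 at 1 TPM and 9 at 5 TPM. With 2 replicates in 4 of the 6 groups, the printed intervals set what these data can resolve.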
